A study of Rattus norvegicus with 23 samples.

Results

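Border-associated macrophage genes were followed in microglia isolated from the brains of neonatal rats. The 10 genes were taken from a list of markers of these cells, namely Mrc1, Lyve1, Cd163, Stab1, Ms4a7, Cbr2, F13a1, Clec10a, Folr2 and Colec12. All 10 had values among the 20301 genes of the table. RNA sequencing was performed on 23 samples of cells that were captured with CD11b/c beads 24 h after operation from Wistar pups of both sexes that were operated on at 7 days of age.

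The Sham group (6 samples) had a sham operation, and no injection is described for it. The LPS group (5 samples) received 0.1 mg/kg lipopolysaccharide (LPS), a bacterial cell wall component that activates innate immune cells, 4 h before the sham operation. The NaCl/HI group (6 samples) received 0.9% NaCl and the LPS/HI group (6 samples) received LPS, both 4 h before hypoxia-ischemia (HI), which was ligation of the left common carotid artery followed by 50 min at 8% oxygen. A Sham or LPS sample held the entire brain of 1 pup, whereas an NaCl/HI or LPS/HI sample held the ipsilateral hemispheres of 2 pups. HI, the hemisphere taken and pooling therefore cannot be told apart, and LPS and injection cannot be told apart in the comparison of LPS with Sham.

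Border-associated macrophages are resident macrophages of the meninges, the perivascular spaces and the choroid plexus. They arise from yolk sac progenitors as microglia do, and they carry CD11b, so beads against CD11b/c take up both cells. Microglia express few or low levels of the scavenger and lectin receptors by which border-associated macrophages clear material from the blood and the cerebrospinal fluid, and CD163 is the antigen of a long-used antibody to perivascular macrophages of the rat brain. Several of these genes are also used by other cells, such as Lyve1 and Stab1 by lymphatic and sinusoidal endothelium.

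Microglial markers were present in every sample, with P2ry12 between 13.44 and 14.41 and Cx3cr1 between 15.38 and 15.70 on the deposited log2 scale, while Siglech lay at the bottom of the table, with a mean of -1.05. The values are log2 expression after a regularised log transformation and after removal of 3 surrogate variables by the authors, so that a difference of 1 is a doubling. They are not divided by gene length, and levels are therefore compared between groups and not between genes. The medians of the 23 samples over all genes lay between 7.75 and 7.82. The depth of the samples is unknown, since no counts were used. In cells isolated in bulk, fewer cells of a type and less RNA per cell cannot be told apart, and this holds for each difference given here.

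Promoters are shown for 3 members, Lyve1 and Stab1 because they were lower in every LPS sample than in any Sham sample, and Mrc1 as the gene by which these macrophages are most often recognised. The 250 bases before the transcription start are from RefSeq on build GRCr8, whereas the expression table was made on mRatBN7.2, and genes were matched by symbol. Of the 10 members, 8 had a RefSeq promoter entry. Each sequence is written 5′ to 3′ on the strand of the gene, and capitals mark GAGGAA or its reverse complement TTCCTC, the core bound by PU.1, the transcription factor that macrophages and microglia require.
Lyve1, chr1:174410978-174411227, minus strand: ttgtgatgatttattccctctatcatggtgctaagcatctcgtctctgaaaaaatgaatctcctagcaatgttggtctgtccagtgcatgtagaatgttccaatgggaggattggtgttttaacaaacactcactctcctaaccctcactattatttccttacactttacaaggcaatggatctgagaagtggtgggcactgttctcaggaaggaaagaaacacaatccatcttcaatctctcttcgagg
Stab1, chr16:6367360-6367609, minus strand: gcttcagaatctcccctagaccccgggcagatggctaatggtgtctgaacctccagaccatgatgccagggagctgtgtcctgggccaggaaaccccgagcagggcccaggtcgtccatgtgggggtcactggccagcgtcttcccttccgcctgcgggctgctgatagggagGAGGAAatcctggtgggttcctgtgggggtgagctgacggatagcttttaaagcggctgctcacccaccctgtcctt
Mrc1, chr17:82157475-82157724, plus strand: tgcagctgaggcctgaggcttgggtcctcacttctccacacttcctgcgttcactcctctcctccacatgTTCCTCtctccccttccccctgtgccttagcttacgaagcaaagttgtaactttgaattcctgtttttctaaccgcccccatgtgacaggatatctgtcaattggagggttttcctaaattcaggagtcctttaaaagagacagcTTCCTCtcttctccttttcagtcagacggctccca
On either strand, GAGGAA occurred in 4 of the 8 member promoters, those of Stab1, F13a1, Mrc1 and Colec12, and in 23.2% of all 27457 promoters of this length. The window of Lyve1 held none, that of Stab1 held 1 and that of Mrc1 held 2, both on the reverse strand. TGACTCA, the site of AP-1, CACGTG, the E-box of the MITF and TFE factors, and TATAAA, the TATA box, were in none of the 8 windows, against 3.98%, 5.79% and 13.1% of all promoters. None of the 4 motifs contains another.

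LPS against Sham had more called members than any other comparison, which did not hold in every alternative fit given below. Of the 10 genes, 4 were downregulated in the LPS group, namely Lyve1, Stab1, Mrc1 and Colec12, and 1 was upregulated, Cbr2, by limma's moderated test at a Benjamini-Hochberg adjusted p under 0.05 over all 20301 genes. Of all genes tested, 7.56% were lower and 10.2% were higher by this criterion. The median difference of the 10 genes was -0.41 on the log2 scale, against -0.01 over all genes. No member changed by more than 2-fold, and 14 of all 20301 genes passed the test with a change above 2-fold. Values of LPS and Sham did not overlap for 3 members, Lyve1, Stab1 and Cbr2, and for 13.9% of all genes.

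**Figure D1:**
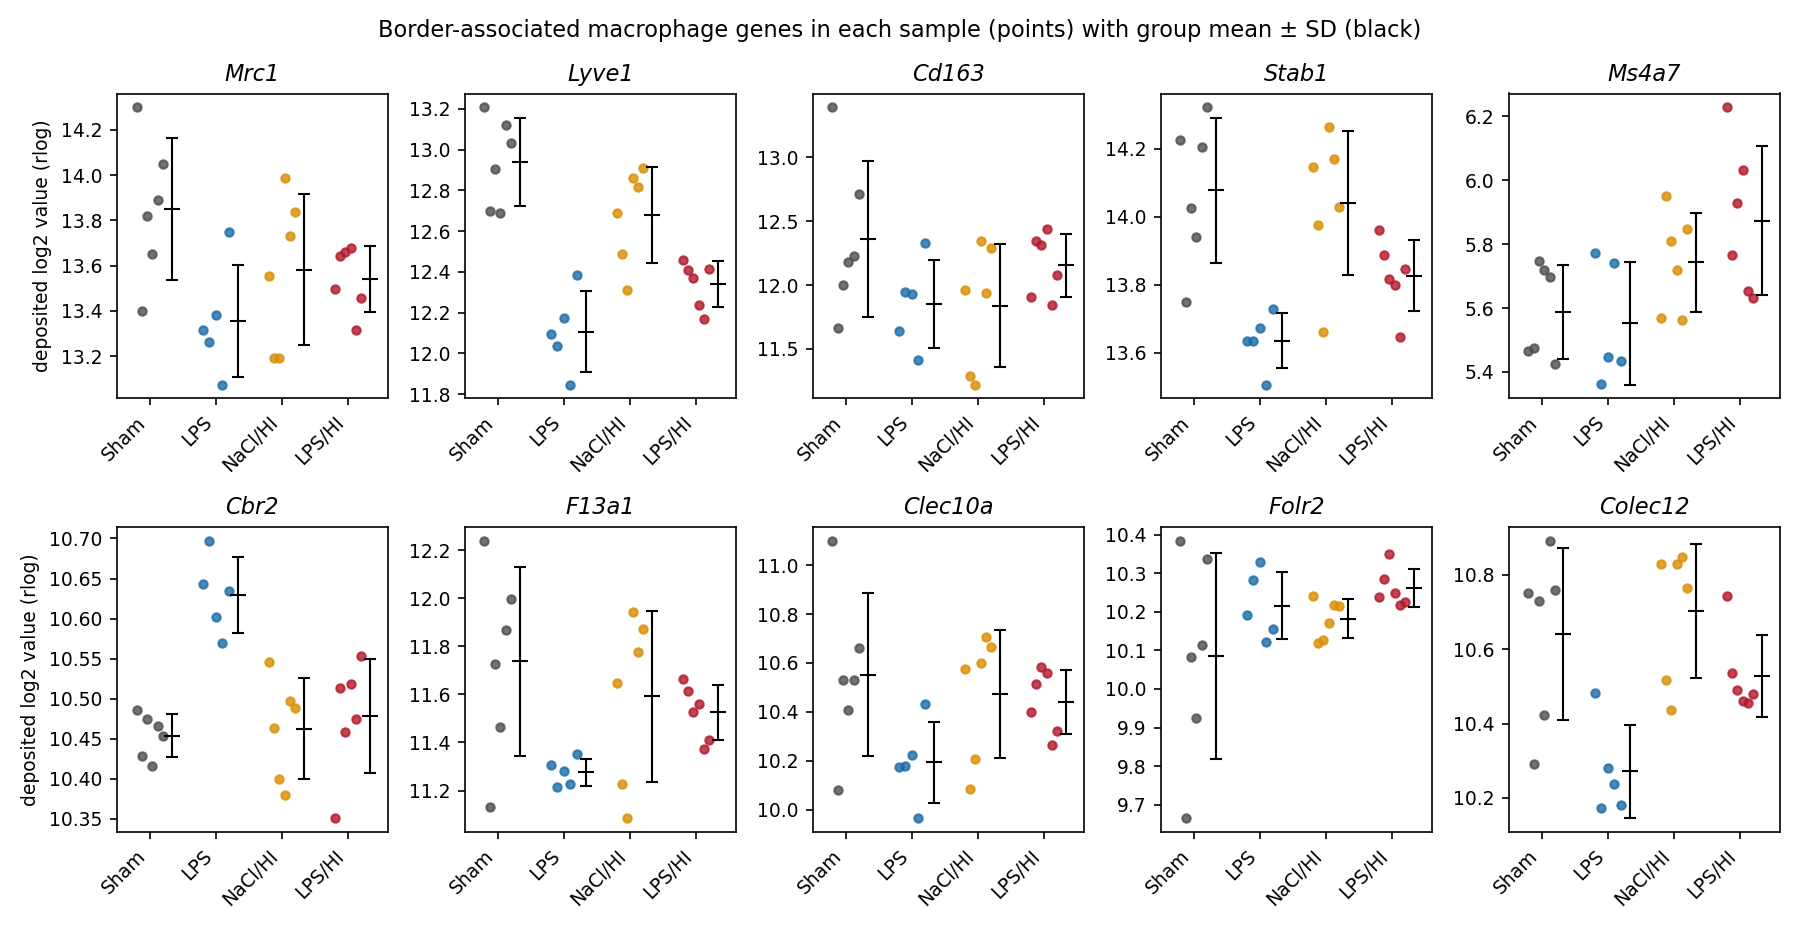
Deposited log2 value of the 10 genes in each of the 23 samples, with 1 panel per gene and its own y axis; points are samples in the order of their replicate number, and black marks are the group mean ± SD. Lyve1 in the LPS group lies between 11.85 and 12.39, under all 6 Sham samples, and Cbr2 in the LPS group lies above every sample of the other groups.

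Lyve1, the hyaluronan receptor that marks a perivascular and meningeal subset of these macrophages, showed the largest change. The 6 Sham samples ran from 12.69 over a median of 12.97 to 13.21. The 5 LPS samples read 12.09, 12.03, 12.17, 11.85 and 12.39. The highest LPS sample thus lay under the lowest Sham sample. The group means were 12.94 ± 0.22 (SD, n = 6) in Sham and 12.11 ± 0.20 (SD, n = 5) in LPS, a log2 difference of -0.83 (SE 0.11, 95% interval -1.07 to -0.60, limma adjusted p = 3.39e-05), which is 1.78-fold lower. The HI groups had means between these levels, with NaCl/HI from 12.31 over 12.75 to 12.91 and LPS/HI from 12.17 over 12.39 to 12.46.

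Stab1 encodes stabilin-1, an endocytic scavenger receptor of tissue macrophages and sinusoidal endothelium. Sham samples ran from 13.75 over a median of 14.12 to 14.32. The LPS samples read 13.64, 13.64, 13.67, 13.51 and 13.73. All 5 LPS samples were lower than every Sham sample, and the mean difference was -0.44 (SE 0.10, 95% interval -0.65 to -0.23, limma adjusted p = 0.00414), or 1.36-fold lower. NaCl/HI ran from 13.66 over 14.09 to 14.27 and LPS/HI from 13.65 over 13.83 to 13.96, so that each overlapped both Sham and LPS.

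Mrc1, the mannose receptor CD206, is an endocytic lectin and the marker most often used to separate border-associated macrophages from microglia. Sham samples ran from 13.40 over a median of 13.85 to 14.30. The LPS samples read 13.31, 13.26, 13.38, 13.07 and 13.75. Of the 5 LPS samples, 4 lay under all Sham samples and replicate 5 lay within the Sham range. The difference was -0.50 (SE 0.16, 95% interval -0.82 to -0.17, limma adjusted p = 0.0327), or 1.41-fold lower. This call was lost with robust variances (limma adjusted p = 0.0545), with exact Wilcoxon ranks (adjusted p = 0.0697) and in 7 of 23 fits that each left out 1 sample (limma adjusted p up to 0.0954), namely without Sham replicate 1, 5 or 6 or without LPS replicate 1, 2, 3 or 4.

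Colec12, a scavenger receptor with a C-type lectin domain, ran from 10.29 over a median of 10.74 to 10.89 in Sham. The LPS samples read 10.48, 10.17, 10.28, 10.24 and 10.18. LPS replicate 1 lay within the Sham range and the other 4 under it. The difference was -0.37 (SE 0.10, 95% interval -0.58 to -0.16, limma adjusted p = 0.0144), or 1.29-fold lower. It did not pass an exact Wilcoxon rank-sum test (adjusted p = 0.0697).

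Cbr2, a carbonyl reductase and the only member that was upregulated, ran from 10.42 over a median of 10.46 to 10.49 in Sham. The LPS samples read 10.64, 10.70, 10.60, 10.57 and 10.63. No LPS sample reached down to the range of Sham, NaCl/HI or LPS/HI. The difference was small, 0.18 (SE 0.04, 95% interval 0.09 to 0.26, limma adjusted p = 0.00517), which is 12.9% higher, and was measured against a Sham SD of 0.03. NaCl/HI ran from 10.38 over 10.48 to 10.55 and LPS/HI from 10.35 over 10.49 to 10.55.

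The remaining 5 members did not pass the test between LPS and Sham. F13a1, the A subunit of coagulation factor XIII, which cross-links fibrin, read 11.31, 11.21, 11.28, 11.23 and 11.35 in LPS and ran from 11.13 over a median of 11.80 to 12.24 in Sham. The SD was 0.06 in LPS and 0.39 in Sham, and the difference of -0.46 (SE 0.16) had a limma adjusted p of 0.0516. Without Sham replicate 2, the lowest Sham sample, it was -0.58 (limma adjusted p = 0.0107), and without Sham replicate 1, the highest, it was -0.36 (limma adjusted p = 0.119). Clec10a, a lectin that binds galactose and N-acetylgalactosamine, read 10.18, 10.18, 10.22, 9.97 and 10.43 in LPS and ran from 10.08 over 10.53 to 11.10 in Sham. Its difference was -0.36 (SE 0.14, limma adjusted p = 0.078), -0.45 (limma adjusted p = 0.0243) without Sham replicate 2 and -0.25 (limma adjusted p = 0.179) without Sham replicate 1.

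Cd163, the receptor for haptoglobin-haemoglobin complexes, had the largest SD of the 10 genes in each group, from 0.25 in LPS/HI to 0.61 in Sham. Sham samples ran from 11.66 over a median of 12.20 to 13.39, and the LPS samples read 11.64, 11.95, 11.93, 11.42 and 12.33. The LPS difference was -0.51 with a wide 95% interval, -1.04 to 0.02 (limma adjusted p = 0.177). Without Sham replicate 1, the highest Sham sample, the difference was -0.30 (limma adjusted p = 0.388). A fall as large as that of Lyve1 and no change both lay within this interval. Folr2, folate receptor beta, ran from 9.67 over 10.10 to 10.38 in Sham and read 10.19, 10.28, 10.33, 10.12 and 10.15 in LPS, a difference of 0.13 (95% interval -0.05 to 0.31, limma adjusted p = 0.321) that was 0.05 without Sham replicate 2. Ms4a7, a membrane protein of the MS4A family with high levels in macrophages and low levels in microglia, ran from 5.42 over 5.59 to 5.75 in Sham and read 5.77, 5.36, 5.45, 5.74 and 5.43 in LPS, a difference of -0.04 (95% interval -0.28 to 0.20, limma adjusted p = 0.867).

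The samples fall into 2 runs of library numbers, 1 to 12 and 13 to 23, each with all 4 groups. The LPS difference from Sham within these runs was -0.84 and -0.83 for Lyve1, -0.35 and -0.54 for Stab1, -0.52 and -0.45 for Mrc1, -0.28 and -0.48 for Colec12 and 0.18 and 0.16 for Cbr2. The direction was thus the same in both runs for these 5 genes.

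NaCl/HI was compared with Sham to ask what HI without LPS changed, although the NaCl injection, the hemisphere taken and pooling also differ between these groups. None of the 10 genes passed the limma test in NaCl/HI, where 2 of 20301 genes, or 0.00985%, passed in either direction. No member had values that did not overlap Sham, which held for 1.01% of all genes. At an unadjusted p under 0.05 there were 2 members, Lyve1 at -0.26 (95% interval -0.49 to -0.04, adjusted p = 0.28) and Cd163 at -0.52 (95% interval -1.03 to -0.01, adjusted p = 0.325), and 3005 of all genes. The exact Wilcoxon test passed no gene, with a lowest adjusted p of 0.213 over all genes. Without Sham replicate 1 the Cd163 difference was -0.32 (limma adjusted p = 0.543), and within the library runs it was -0.86 and -0.18. The median difference of the members was -0.06.

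In NaCl/HI, Cd163 ran from 11.22 over a median of 11.95 to 12.34 and Mrc1 from 13.19 over 13.64 to 13.99. F13a1 ran from 11.09 over 11.71 to 11.94, Clec10a from 10.09 over 10.59 to 10.71 and Colec12 from 10.44 over 10.80 to 10.85. Replicates 2 and 3 gave the lowest pair of values in each of these 5 genes. Folr2 ran from 10.12 over 10.19 to 10.24, a narrower range than in Sham, and Ms4a7 from 5.56 over 5.76 to 5.95.

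In the LPS/HI group, Lyve1 was the only member that passed the test against Sham. The 6 samples ran from 12.17 to 12.46, under all Sham samples, with a mean of 12.34 ± 0.11 (SD, n = 6) and a difference of -0.60 (SE 0.11, 95% interval -0.83 to -0.37, limma adjusted p = 0.00347), or 1.51-fold lower. This 1 of 10 members stood against 3.48% of all genes lower, and the 1 member without overlap against 6.37% of all genes. Lyve1 differed by -0.53 and -0.67 within the library runs. Stab1 followed at -0.25 (SE 0.10, limma adjusted p = 0.0967), with 6 of 6 samples under the Sham mean, and passed without Sham replicate 2 (limma adjusted p = 0.0445).

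**Figure D2:**
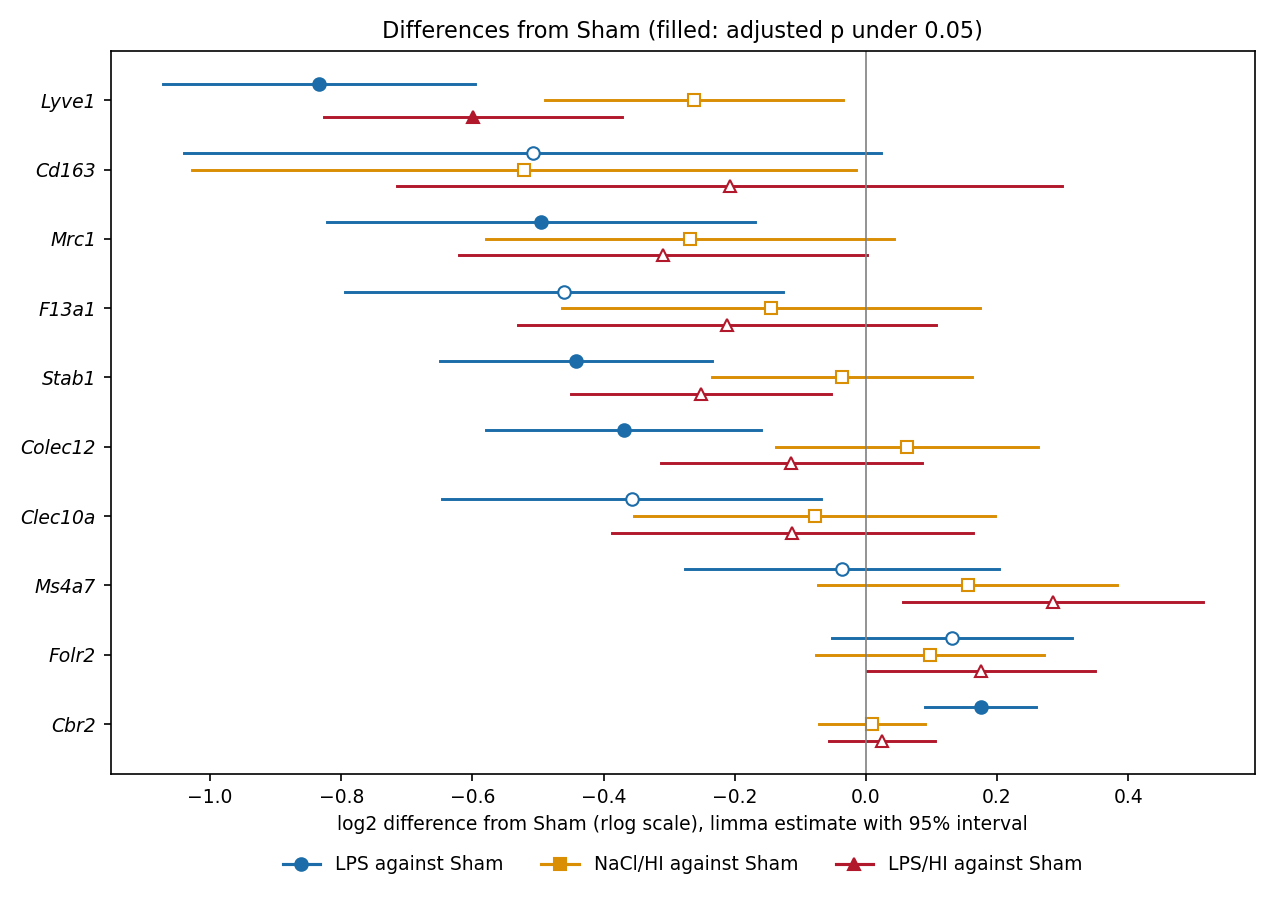
Log2 difference of each gene from Sham in the LPS (circles), NaCl/HI (squares) and LPS/HI (triangles) groups, as limma estimates with 95% intervals on the x axis; filled symbols passed an adjusted p under 0.05. Lyve1 has the leftmost LPS estimate, at -0.83, and is filled for both LPS and LPS/HI, while no NaCl/HI symbol is filled.

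None of the other 8 members passed between LPS/HI and Sham either. Mrc1 ran from 13.31 over a median of 13.57 to 13.68 and its difference was -0.31 (95% interval -0.62 to 0.00, limma adjusted p = 0.188), with 6 of 6 samples under the Sham mean. Cd163 ran from 11.84 over 12.19 to 12.44, F13a1 from 11.37 over 11.54 to 11.67 and Clec10a from 10.26 over 10.46 to 10.58, each inside its Sham range. Colec12 ran from 10.46 over 10.48 to 10.74. Folr2 ran from 10.22 over 10.24 to 10.35 (difference 0.18, limma adjusted p = 0.181, and 0.09 without Sham replicate 2) and Ms4a7 from 5.63 over 5.85 to 6.23 (difference 0.29, 95% interval 0.06 to 0.51, limma adjusted p = 0.101). For both genes 6 of 6 LPS/HI samples were above the Sham mean, and neither passed the test.

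The comparison of LPS/HI with NaCl/HI asks what LPS changed ahead of HI, with the same tissue and pooling in both groups. No member passed the limma test, against 0.202% of all genes, and none was without overlap, against 1.33%. Lyve1 was lower by a log2 difference of -0.34 (95% interval -0.56 to -0.11, unadjusted p = 0.00555, limma adjusted p = 0.224), with 6 of 6 LPS/HI samples under the NaCl/HI mean. Stab1 differed by -0.21 (95% interval -0.41 to -0.02, limma adjusted p = 0.424). These 2 were the only members at an unadjusted p under 0.05, beside 2161 of all genes. The exact Wilcoxon test had a lowest adjusted p of 0.162 over all genes and passed none. Within the library runs, Lyve1 differed by -0.09 and -0.59 and Stab1 by -0.04 and -0.39.

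LPS/HI was also compared with LPS. No member passed, against 1.94% of all genes, and 9 of 10 had higher means in LPS/HI, with a median difference of 0.24 against 0.00 over all genes. Cbr2 was the exception, at -0.15 (95% interval -0.24 to -0.07, limma adjusted p = 0.0555), and its LPS and LPS/HI values did not overlap. It passed in 4 of the alternative fits, and without NaCl/HI replicate 4 (limma adjusted p = 0.0483). F13a1 did not overlap either, with all 6 LPS/HI samples above the 5 LPS samples, yet its difference of 0.25 had a limma adjusted p of 0.504. This test uses 1 spread shared by all 4 groups. The SD of F13a1 was 0.06 in LPS and 0.11 in LPS/HI, but 0.39 in Sham and 0.35 in NaCl/HI. Non-overlap held for 4.17% of all genes. At an unadjusted p under 0.05 there were Cbr2, Ms4a7 at 0.32 (adjusted p = 0.157) and Colec12 at 0.26 (adjusted p = 0.202), beside 3137 of all genes. The exact Wilcoxon test passed no gene here, its lowest adjusted p being 0.104.

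LPS and NaCl/HI, which differ in agent and injury alike, separated more. Lyve1 was lower in LPS by -0.57 (SE 0.11, limma adjusted p = 0.00285), Colec12 by -0.43 (SE 0.10, limma adjusted p = 0.009) and Stab1 by -0.41 (SE 0.10, limma adjusted p = 0.0134), 3 of 10 members against 3.66% of all genes. Cbr2 was higher in LPS by 0.17 (SE 0.04, limma adjusted p = 0.0128), against 5.32% of all genes, and was the 1 member without overlap, against 7.31%. The exact Wilcoxon test passed no gene in this comparison, where the lowest adjusted p of all genes was 0.0593. Stab1 (limma adjusted p = 0.0517) and Cbr2 (limma adjusted p = 0.161) were lost when only these groups were fitted. Within the library runs, the differences were -0.40 and -0.75 for Lyve1, -0.28 and -0.54 for Stab1, -0.28 and -0.60 for Colec12 and 0.18 and 0.15 for Cbr2.

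Whether the LPS effect differed with HI was tested by the interaction, the LPS/HI minus NaCl/HI difference less the LPS minus Sham difference. No member passed, against 1.08% of all genes, although 8 of 10 estimates were positive. The estimates were 0.50 for Lyve1 (SE 0.16, limma adjusted p = 0.128), 0.82 for Cd163 (SE 0.35, limma adjusted p = 0.267), 0.45 for Mrc1 (SE 0.22, limma adjusted p = 0.326) and -0.16 for Cbr2 (SE 0.06, limma adjusted p = 0.175). These 4 were under an unadjusted p of 0.05, as were 3065 of all genes. The 7 sets of differences share samples and are not independent of one another.

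In the order of the group means, 5 genes had the same sequence. Mrc1, Lyve1, Stab1, F13a1 and Clec10a ran from Sham over NaCl/HI and LPS/HI down to LPS. Among neighbours in this order, none of these 5 genes passed the test. Colec12 ran from NaCl/HI over Sham and LPS/HI to LPS, and Cd163 from Sham over LPS/HI and LPS to NaCl/HI. Cbr2 ran from LPS over LPS/HI and NaCl/HI to Sham, Folr2 from LPS/HI over LPS and NaCl/HI to Sham, and Ms4a7 from LPS/HI over NaCl/HI and Sham to LPS, again with no neighbours that passed.

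Within the groups, most members varied together from sample to sample. After each value was centred on its group mean, 8 genes correlated with the mean of the other members at an r over 0.5 over the 23 samples, namely F13a1 (r = 0.96), Mrc1 (0.94), Clec10a (0.92), Lyve1 (0.86), Stab1 (0.85), Cd163 (0.84), Folr2 (0.74) and Colec12 (0.70). Cbr2 (0.19) and Ms4a7 (-0.23) did not. The 28 pairs among the 8 genes had r between 0.43 (Cd163 with Colec12) and 0.94 (Mrc1 with Cd163), with a median of 0.79, and 27 of them exceeded 0.5. Values of a pair come from the same library, so these correlations are a description and share whatever moves a library as a whole.

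**Figure D3:**
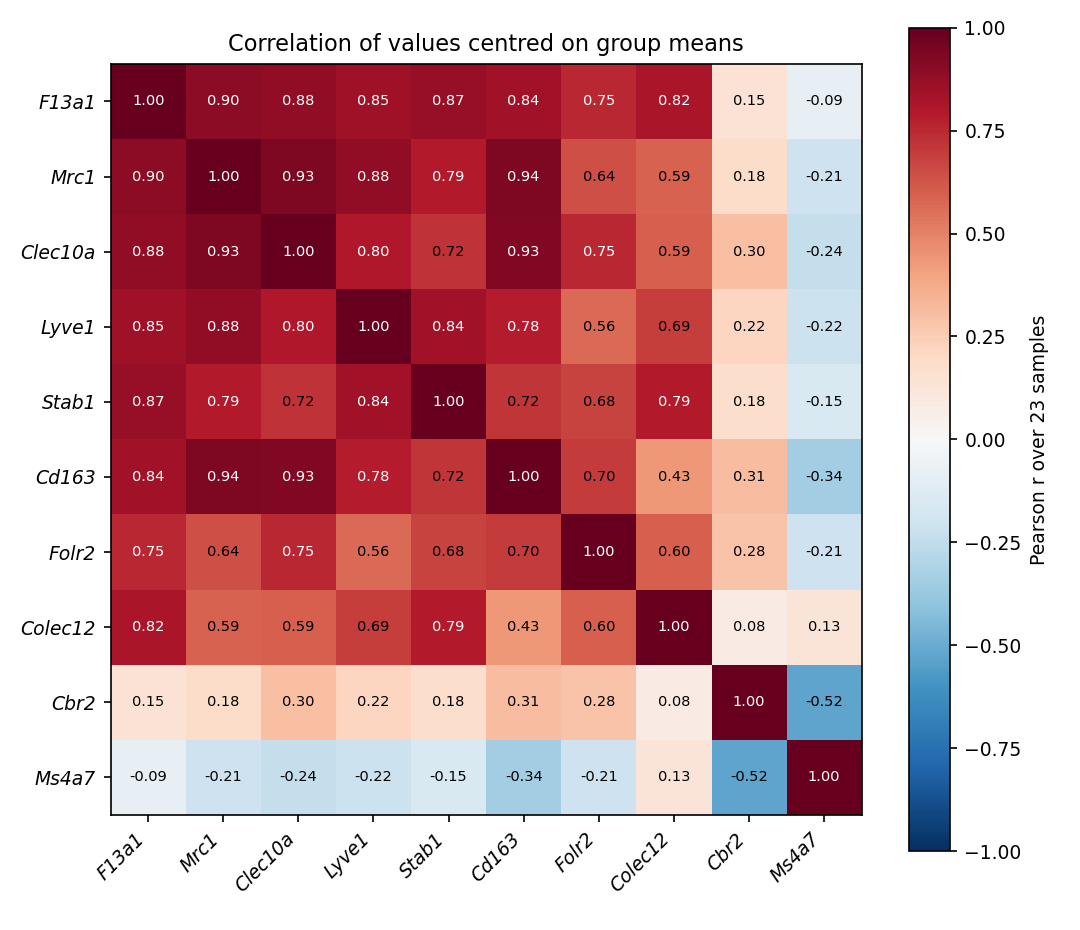
Pearson r between the 10 genes over 23 samples, on log2 values centred on the group means; red is positive and blue negative on a scale from -1 to 1. The 8 genes at the upper left form a block from 0.43 to 0.94, while Cbr2 and Ms4a7 stand outside it.

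The mean of these 8 genes, here called the co-varying set, was 12.03 ± 0.30 (SD, n = 6) in Sham, 11.61 ± 0.13 (SD, n = 5) in LPS, 11.89 ± 0.25 (SD, n = 6) in NaCl/HI and 11.83 ± 0.09 (SD, n = 6) in LPS/HI. Sham therefore had the widest and LPS/HI the narrowest spread. Sham replicate 1 lay 0.42 above its group mean and Sham replicate 2 lay 0.45 below it, while NaCl/HI replicates 3 and 2 lay 0.36 and 0.27 below theirs. Cd163 moved most within groups, with 13.39 in Sham replicate 1 and 11.66 in Sham replicate 2. Cbr2 read 10.49 and 10.43 in these same samples. Without Sham replicate 2, 7 rather than 5 members passed between LPS and Sham and 2 rather than 1 between LPS/HI and Sham.

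**Figure D4:**
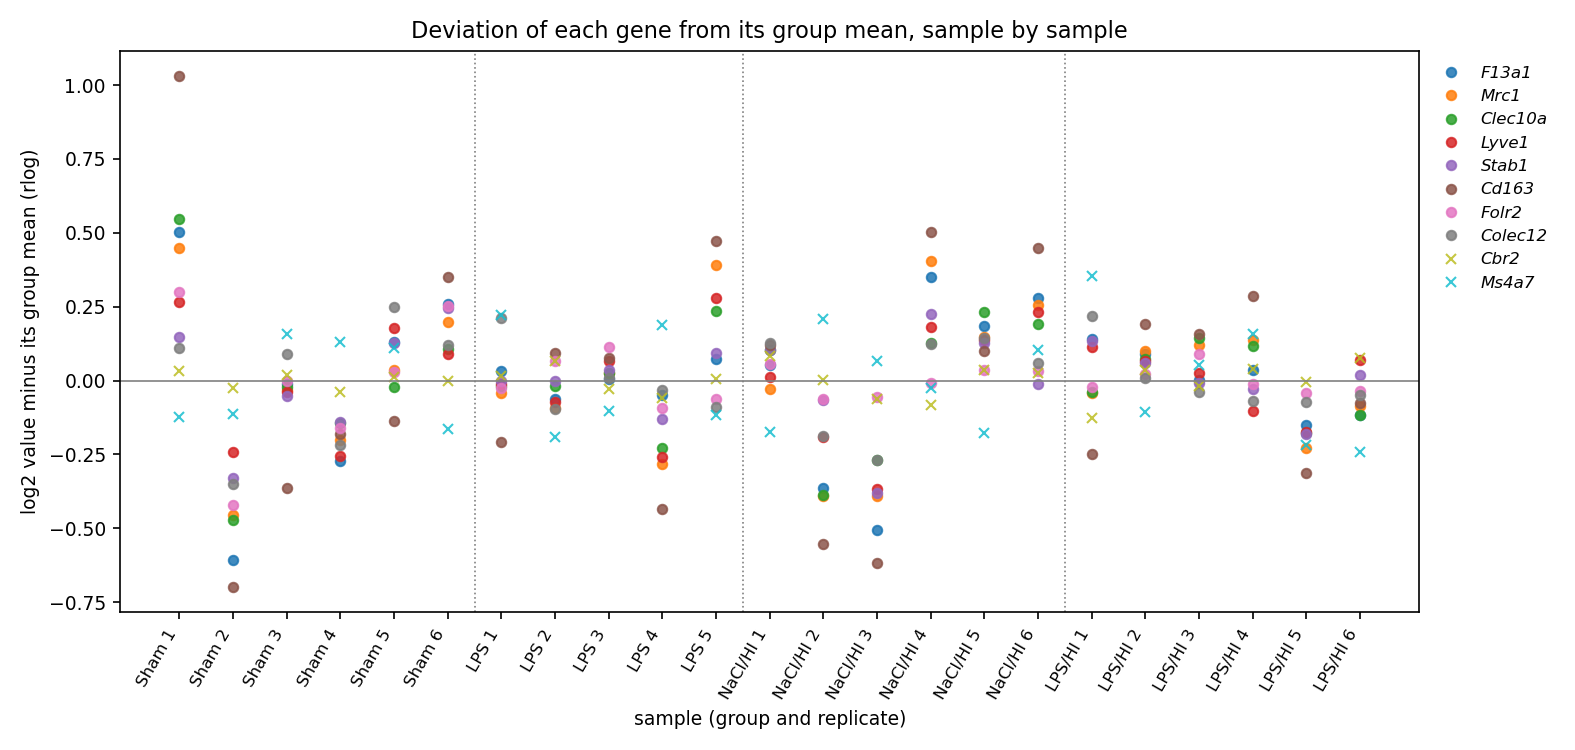
Deviation of each gene from its group mean (y axis, log2) in each sample (x axis, group and replicate number); circles are the 8 co-varying genes and crosses are Cbr2 and Ms4a7. The circles stand together above 0 in Sham replicate 1 and below 0 in Sham replicate 2 and in NaCl/HI replicates 2 and 3.

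The genes whose centred values were most like the co-varying set, out of 20291 other genes, were St8sia6 (r = 0.93), Fxyd2 (0.93), Cndp1 (0.89), Gusb (0.88), Fcna (0.87), Heph (0.87), Nat8f3 (0.87), Fcgrt (0.87), Cnr2 (0.86) and Pf4 (0.84). An r over 0.5 was reached by 847 of these genes. For Mrc1 alone, the 5 most alike were Fxyd2 (r = 0.89), Ms4a4a (0.89), St8sia6 (0.88), Gusb (0.88) and Pf4 (0.88). Pf4, a chemokine also known from platelets, and Fcgrt, the neonatal Fc receptor, stand on the list of further border-associated macrophage genes described next.

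A second list held 34 further genes that are used to describe border-associated macrophages, of which 27 had values. In LPS against Sham, 6 of the 27 were downregulated and 2 were upregulated, beside the 7.56% lower and 10.2% higher of all genes given above, and the median difference was -0.04 against -0.01 over all genes. Ccl24, an eosinophil chemoattractant, fell from 9.62 ± 0.24 (SD, n = 6) in Sham to 8.89 ± 0.11 (SD, n = 5) in LPS (difference -0.72, SE 0.11, limma adjusted p = 6.65e-05). Dab2, an adaptor of clathrin-mediated endocytosis, fell from 13.34 ± 0.12 to 12.95 ± 0.15 (difference -0.40, limma adjusted p = 0.000236). Ednrb, an endothelin receptor, fell by 0.28 on the log2 scale (limma adjusted p = 0.00577), and Nrp1, a co-receptor for semaphorins and VEGF, rose by 0.36 (limma adjusted p = 0.0141).

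In the other comparisons fewer of the 27 passed. Against Sham, LPS/HI had 2 lower (3.48% of all genes) and 2 higher (5.3% of all genes). The lower genes were Ccl24 (-0.43, limma adjusted p = 0.0148) and Hpgd, which degrades prostaglandins (-0.32, limma adjusted p = 0.0246), and the higher genes were the NAD glycohydrolase Cd38 (0.35, limma adjusted p = 0.0446) and the ferroxidase Cp (0.22, limma adjusted p = 0.0419). None passed in NaCl/HI against Sham, where 0.00985% of all genes passed in either direction. Ccl24 was also lower in LPS/HI than in NaCl/HI (-0.49, limma adjusted p = 0.0464), where 0.202% of all genes passed and Lyve1 did not. Dab2 in LPS/HI exceeded its LPS level (0.25, limma adjusted p = 0.0465), beside 1.94% of all genes in either direction. Between LPS and NaCl/HI, Ccl24, Dab2 and Ednrb were lower in LPS (3.66% of all genes). Marco passed as higher in LPS (5.32% of all genes) at a difference of 0.12, with a level near 0 in every sample. Centred on group means, the 27 genes had a median r of 0.26 to the co-varying set, and 7 exceeded 0.5. Of the 8 MHC class II genes on the list for the antigen-presenting subset of border macrophages, none passed in any of the 6 comparisons or the interaction. The share of all genes that passed ran from 0.00985% in NaCl/HI against Sham to 7.56% lower and 10.2% higher in LPS against Sham.

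Markers of other cells moved in some of the same comparisons. Their counts in LPS against Sham stand beside 7.56% of all genes lower and 10.2% higher. In LPS against Sham, 7 of 14 homeostatic microglial genes were lower, among them P2ry13 at -0.42 (limma adjusted p = 0.00209), Sall1 at -0.25 (limma adjusted p = 0.00232) and Gpr34 at -0.42 (limma adjusted p = 0.0177), and none was higher. The mean of this list lay between 12.18 and 12.47 in Sham and between 11.94 and 12.20 in LPS. Of 10 genes shared by macrophages and microglia, 5 were higher, among them the adaptor Tyrobp at 0.25 (limma adjusted p = 0.00337), the complement genes C1qc at 0.41 (limma adjusted p = 0.00674) and C1qa at 0.29 (limma adjusted p = 0.0156), and Spi1, which encodes PU.1, at 0.18 (limma adjusted p = 0.0112), with list means from 12.77 to 13.03 in Sham and from 13.01 to 13.11 in LPS. Tmem119 did not pass (-0.46, limma adjusted p = 0.0819).

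Of 5 genes of lymphatic endothelium, which also carries Lyve1, 2 were lower in LPS than in Sham (7.56% of all genes), Flt4 at -0.28 (limma adjusted p = 0.00787) and Prox1 at -0.25 (limma adjusted p = 0.0483), with list means from 7.53 to 7.77 in Sham and from 7.37 to 7.59 in LPS. Of 9 genes of blood endothelium, 4 were lower and 1 was higher (10.2% of all genes), with means from 10.88 to 11.15 and from 10.70 to 10.98. Of 10 monocyte genes, 2 were higher, again beside 10.2% of all genes, Plac8 at 1.17 (limma adjusted p = 2.86e-06) and Itgal at 0.55 (limma adjusted p = 1.1e-05), with means from 9.51 to 10.08 in Sham and from 9.88 to 10.26 in LPS. The monocyte gene Ccr2 did not pass (-0.18, limma adjusted p = 0.54). In LPS/HI against Sham, where Lyve1 was lower, 1 of the 5 lymphatic genes was higher (5.3% of all genes), Pdpn at 0.87 (limma adjusted p = 0.0368), and none was lower, with list means from 7.72 to 7.91 in LPS/HI. The part of these cells in the differences of the 10 genes was not tested.

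Centred on group means, homeostatic microglial genes had a median r of 0.19 to the co-varying set and genes shared by macrophages and microglia 0.28. Csf1r, the receptor that both cells need to survive, reached 0.78, and C1qa 0.72, both named here because they had the highest r of their list. The medians were -0.23 for monocyte, -0.16 for endothelial, -0.45 for mural cell and -0.49 for astrocyte genes. Neutrophil genes had -0.20, lymphatic endothelial genes -0.06 (highest 0.57) and MHC class II genes -0.04. Dendritic cell genes had 0.13, neuronal genes 0.09 and oligodendrocyte lineage genes 0.01. These are descriptions over the same 23 samples.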

How the data were processed

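Microglia of 23 samples were captured with CD11b/c beads, RNA was sequenced with TruSeq v2 libraries from 500 ng of total RNA, and the authors deposited 1 table of log2 values per gene. Per the submitters' processing notes and the study's methods, FastQC 0.11.9, MultiQC 1.14, kallisto 0.48.0 and DESeq2 were used on mRatBN7.2, values were transformed by rlog, and 3 surrogate variables were removed. This removal can make replicates look more alike and p-values too low. Depth per sample is unknown, so that no counting interval is given, and p-values measure the spread between the samples.

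Groups and replicate numbers were taken from the sample titles. A linear model with 4 group means was fitted to all 23 samples and all 20301 genes with limma 3.58.1 (R 4.3.3), with a variance trend, 2-sided moderated tests and Benjamini-Hochberg adjustment within each comparison. The removed variables were allowed for by rescaling the variances to 16 residual degrees of freedom in place of 19. The fit was tested on simulated data from which variables of known values had been removed. The authors estimated their variables from the data, which the simulation does not cover. Alternatives were 19 degrees of freedom, no trend, robust variances, array weights, quantile normalization, median centring, no lowest 25% of genes, only the 2 groups, exact Wilcoxon rank-sum tests, a fold above 2, blocks by replicate number or library run, and each sample left out. Figures and tables were made with Python 3.11.15, numpy 2.4.6, pandas 2.3.3, scipy 1.17.1 and matplotlib 3.10.9.

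The members and all lists were chosen with earlier results of these data known. All 10 members are named, and of each other list at most 4 called genes per comparison with the smallest adjusted p, besides defining markers. Genes of like pattern are the 10 with the highest r to the members whose r to the mean of the others exceeds 0.5, and the 5 most like Mrc1. Lists were further border macrophage genes, MHC class II, homeostatic microglia, genes shared by macrophages and microglia, monocytes, neutrophils, dendritic cells, endothelium, lymphatic endothelium, fibroblasts and leptomeninges, mural cells, choroid plexus epithelium, neurons, astrocytes and oligodendrocyte lineage. A list's level is the mean of its genes' log2 values.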

Additional observations from a re-analysis of the deposited data

Results flagged for a closer look

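Of the 40 sets of values tested, 10 genes in 4 groups, 1 had a sample far from the others. In LPS/HI replicate 1, Colec12 read 10.74 (10.7442), while the other 5 LPS/HI samples lay between 10.46 and 10.54. The gap took up 0.72 of the range of the group, above the 95% critical value of Dixon's test for 6 samples. Chance flags about 1 in 20 such groups.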

How the results depend on the processing

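No alternative reversed a called difference. Of the results for single genes with all samples kept, 707 of 750 kept their direction and their side of the threshold, 24 passed it anew, 10 no longer passed (4 of them by the exact Wilcoxon test in LPS against NaCl/HI, which passed no gene of the table there) and 9 uncalled estimates changed sign. With 1 sample left out, these numbers were 1575, 8, 7 and 20 of 1610. Lyve1, Stab1 and Cbr2 in LPS against Sham and Lyve1 in LPS/HI against Sham passed in every one of these fits other than the requirement of a fold above 2.

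The number of members called in LPS against Sham was 5, and 7 with 19 degrees of freedom, 6 with array weights, quantile normalization or without the lowest 25% of genes, 4 with robust variances, 3 by the exact Wilcoxon test, 0 with a fold above 2 and 4 to 7 with 1 sample left out (7 without Sham replicate 2). In LPS/HI against Sham it was 1, and 4 with array weights, 0 with a fold above 2 and 1 to 2 with 1 sample left out (2 without Sham replicate 2). In LPS/HI against LPS it was 0, and 1 with 19 degrees of freedom, without the lowest 25% of genes or with median centring, 8 with array weights and 0 to 1 with 1 sample left out (1 without NaCl/HI replicate 4). In LPS against NaCl/HI it was 4, and 2 with only these groups fitted and 0 with a fold above 2. The exact Wilcoxon test gave 0 there and passed no gene of the table, its lowest adjusted p being 0.0593. Its unadjusted p there was 0.00433 for Cbr2, 0.00866 for Lyve1 and Colec12 and 0.0173 for Stab1. At the same group sizes it passed 3887 of all genes in LPS against Sham. It also called 0 of all genes in 3 other comparisons. In LPS/HI against NaCl/HI the number of members called was 0, and 2 with array weights, and for the interaction 0, and 3 with array weights. With a fold above 2, 14 of all genes passed in LPS against Sham, 19 in LPS/HI against Sham and 12 in LPS against NaCl/HI. The array weights did not reach convergence. The cause of the other changes was not tested. For the limma alternatives without a fold condition, the share of all genes called is not given, and the member counts cannot be set against it.

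The replicate numbers did not pair the samples: 9 of 33 same-numbered pairs between groups correlated at r over 0.1, and 5 of 23 samples correlated best with a sample of their own number. A fit with a replicate block called 4 rather than 5 members in LPS against Sham, where Mrc1 had a limma adjusted p of 0.0662, and it changed no other number of calls. Likeness by Spearman's rho shared 9 of the 10 genes nearest the co-varying set, and values not centred on group means shared 4. Depth is unknown, so that the precision of low genes such as Ms4a7 could not be read from counts.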

Other observations

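The remaining marker lists gave the following counts. In LPS against Sham, where 7.56% of all genes were lower and 10.2% higher, 5 of 8 neuronal genes were lower, 2 of 8 astrocyte genes were higher, and of 12 neutrophil genes 1 was higher and 2 were lower, while none of 10 fibroblast and leptomeningeal, 8 mural cell, 8 dendritic cell, 8 choroid plexus epithelial and 8 oligodendrocyte lineage genes passed. In LPS/HI against Sham, 4 of 10 fibroblast and leptomeningeal, 3 of 8 mural cell, 4 of 12 neutrophil, 3 of 10 monocyte, 2 of 8 astrocyte, 1 of 8 dendritic cell (Itgax), 1 of 9 endothelial (Pecam1), 1 of 5 lymphatic endothelial (Pdpn) and 1 of 10 genes shared by macrophages and microglia (Cd68) were higher, beside 5.3% of all genes, and 3 of 8 neuronal and 2 of 14 homeostatic microglial genes were lower, beside 3.48% of all genes. No gene of these lists passed in NaCl/HI against Sham, where 0.00985% of all genes passed in either direction.

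The lists of fibroblasts and leptomeninges and of choroid plexus epithelium hold genes of the tissues in which border-associated macrophages reside. Their list means lay between 9.17 and 9.42 and between 8.69 and 9.03 in Sham, and between 9.11 and 9.42 and between 8.61 and 9.14 in LPS. Their median r to the co-varying set, centred on group means, was 0.05 and -0.33.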
